A study of Mus musculus with 4 samples.

Results

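Natural killer (NK) cells of the mouse ovary are described here from single-cell RNA sequencing of ovarian cells that were sorted for CD45, the leukocyte surface marker, and CD11b, the integrin chain encoded by Itgam. A barcode was counted as an NK cell when its raw unique molecular identifiers (UMIs, each standing for 1 captured transcript) of Ncr1, Klrb1c, Klre1 and Prf1 summed to at least 3. It also had to hold at most 1 UMI of Cd3d, Cd3e and Cd3g, at most 2 UMIs of Cd79a, Cd79b and Ms4a1, and fewer than 10 UMIs of C1qa, C1qb and C1qc. Of 6281 kept cells among 8074 barcodes, 383 met the rule, against 2421 macrophages with at least 10 C1q UMIs and 56 T cells with at least 3 Cd3 UMIs. The cells were thus chosen by measured UMIs of the genes above, so the levels of these genes, and differences in level between NK cells and other cells, are given as a description, with no test.

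NK cells are innate lymphocytes that kill target cells by releasing perforin and granzymes from granules and that secrete interferon gamma and chemokines. Their activity is set by a balance of activating and inhibitory receptors, which in mice are largely lectin-like proteins encoded side by side in the NK gene complex. As they mature they lose CD27 and gain CD11b and KLRG1, and tissues such as the uterus hold further NK cells and related innate lymphoid cells with a resident phenotype.

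The cells came from wild-type, virgin C57BL/6J females of 2 ages, labelled 15 months and 3 months, with no treatment. The protocol gives harvest at 14 to 17 months and at 2 to 3 months. Each age had 3 pools of ovaries, each marked with its own hashtag (an antibody with a sequence tag) and then joined for 1 sort and 1 library. Age therefore cannot be told apart from the sort and the library, and all tests measure the spread between pools within a library. The labels disagree on the animals: one gives 2 mice for every pool, the other gives 5 animals at 15 months, with 1 pool from a single unnamed animal, and 6 at 3 months. The sort required CD11b, which only part of all NK cells carry, so it aimed at the CD11b-positive portion of the ovarian NK cells. The counts used here hold no CD11b protein level for each cell. The label calls the sorted cells myeloid, and NK cells are lymphoid.

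The NK cells numbered 44, 119 and 28 in pools 1, 2 and 3 at 15 months, against 85, 30 and 77 at 3 months. Their summed UMIs were 156837, 549613 and 112534 at 15 months, against 276992, 126480 and 267837 at 3 months. The median depth per NK cell was 4048 UMIs at 15 months and 3008 UMIs at 3 months. Of 3 barcodes found in both libraries, 1 was an NK cell in at least 1 of them. At the edge of the rule, the 15 cells with a sum of 2 UMIs, just outside, had Nkg7 in 66.7% of cells and Lyz2 in 40.0%, and the 13 cells with a sum of 3, just inside, had Nkg7 in 92.3% and Lyz2 in 38.5%.

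Several NK barcodes carried RNA of another lineage. With 20 UMIs of another lineage's markers, or over 1% of haemoglobin UMIs, as the limit, 8 barcodes stood out, 3 at 15 months and 5 at 3 months. Among them, 1 barcode of 3 months pool 1 was 62.2% haemoglobin, 1 of the same pool held 439 UMIs of ovarian steroid-producing cell markers, 3 held 117 to 423 UMIs of dendritic cell markers, and 1 of 15 months pool 3 held 51 UMIs of neutrophil markers. Among the other 375 cells the highest count of any such list was 13 UMIs. The count of genes by age, the marker sums of these lineages and some of the genes named are given with and without them.

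The bases before the RefSeq starts of the genes that chose the cells, and of Gzma, are shown because these genes mark the same cells across the data. The windows are the 250 bases before each gene's start in RefSeq, written 5′ to 3′ on the gene's strand, on GRCm38.p6. By GENCODE M21, Klrb1c spans chr6:128778485-128789215 and Klre1 chr6:129577905-129585827, so their windows lie inside the genes. The Prf1 window ends just past the GENCODE start of that gene. Capitals mark the RUNX core TGTGGT and the T-box core TCACAC, searched on both strands (as ACCACA and GTGTGA on the other), and no 2 matches overlap. The windows are chr7:4337465-4337714, plus strand for Ncr1, chr6:128788642-128788891, minus strand for Klrb1c, chr6:129577963-129578212, plus strand for Klre1, chr10:61297586-61297835, plus strand for Prf1 and chr13:113100982-113101231, minus strand for Gzma.
Ncr1: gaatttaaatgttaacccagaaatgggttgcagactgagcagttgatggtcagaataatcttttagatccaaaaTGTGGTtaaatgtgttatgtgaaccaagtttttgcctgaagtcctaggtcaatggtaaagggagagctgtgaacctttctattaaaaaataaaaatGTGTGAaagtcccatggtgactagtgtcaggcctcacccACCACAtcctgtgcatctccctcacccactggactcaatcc
Klrb1c: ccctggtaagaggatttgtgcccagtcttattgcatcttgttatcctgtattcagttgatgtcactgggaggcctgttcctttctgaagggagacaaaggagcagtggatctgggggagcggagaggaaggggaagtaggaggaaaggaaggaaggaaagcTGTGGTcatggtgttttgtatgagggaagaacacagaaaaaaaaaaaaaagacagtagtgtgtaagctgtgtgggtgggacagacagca
Klre1: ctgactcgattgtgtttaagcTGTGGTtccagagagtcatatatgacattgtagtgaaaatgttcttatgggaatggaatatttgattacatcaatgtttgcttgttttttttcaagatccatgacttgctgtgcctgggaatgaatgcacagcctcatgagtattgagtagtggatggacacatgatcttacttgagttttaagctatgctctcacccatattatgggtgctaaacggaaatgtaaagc
Prf1: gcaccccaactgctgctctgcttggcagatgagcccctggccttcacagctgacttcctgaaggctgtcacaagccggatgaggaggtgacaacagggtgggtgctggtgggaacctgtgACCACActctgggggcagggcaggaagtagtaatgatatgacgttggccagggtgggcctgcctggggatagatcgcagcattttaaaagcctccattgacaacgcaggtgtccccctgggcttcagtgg
Gzma: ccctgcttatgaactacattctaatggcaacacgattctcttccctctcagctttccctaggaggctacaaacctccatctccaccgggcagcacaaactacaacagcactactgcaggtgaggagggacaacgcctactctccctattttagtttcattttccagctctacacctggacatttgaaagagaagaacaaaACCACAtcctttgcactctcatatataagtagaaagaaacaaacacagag
Each of the 5 windows held the RUNX core, Ncr1 on 2 occasions and the others once, while 14.0% of all 32851 windows of this length held it. The T-box core stood once in Ncr1 and in none of the other 4, against 12.3% of all windows. The palindromic STAT site TTCNNNGAA, was in none of the 5 and in 7.02% of all windows. A match describes letters only.

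NK cells against the other kept cells were first described by level, in CPM, UMI counts scaled to one common total. NK cells were scaled by TMM library size and the rest by plain UMI totals. C1q macrophage means by age, given below, were scaled by the TMM library size of those cells. TMM sizes counted only the genes tested, 139352 of 156837 NK UMIs in 15-month pool 1, so NK levels lie above those on a plain scale. Gene positions are those of GENCODE M21 on GRCm38. Ncr1 (the activating receptor NKp46, chr7:4337724-4345164) averaged 777.7 CPM over the 6 NK pools, with 703 in the lowest and 867 in the highest pool, against 1.08 CPM in the rest. Klrb1c (NK1.1, chr6:128778485-128789215) averaged 694 CPM in NK cells against 1.30 CPM in the rest. Klre1, an orphan lectin-like receptor chain, averaged 958 CPM in NK cells against 5.17 CPM in the rest. Prf1 (perforin, chr10:61297833-61304680) averaged 1677 CPM in NK cells against 2.06 CPM in the rest. Gzma (granzyme A, chr13:113093825-113100981), which the rule did not use, averaged 13573 CPM in NK cells against 24.9 CPM in the rest, and 9465 CPM in its lowest NK pool. T cells held 291 CPM of Gzma and 153 CPM of Gzmb.

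Among genes of at least 100 CPM in NK cells, the 30 with the highest ratio to the rest were mostly receptors and granule genes. Besides the 4 rule genes they held granzymes (Gzma, Gzmb and Gzmc), the Ly49 receptors Klra1, Klra3, Klra4, Klra7, Klra8 and Klra9, and the NKG2 genes Klrc1 and Klrc2. Further lectin-like genes were Klrb1a, Klrb1f, Klrg1 and Klri2. The others were Ifng (interferon gamma), Xcl1 (the chemokine lymphotactin), Nkg7 (a granule protein), Il2rb (the shared interleukin-2 and interleukin-15 receptor chain), Ctsw (cathepsin W), Txk (a Tec-family kinase), Serpinb9b (a protease inhibitor), Samd3, Styk1 and 2 predicted gene models. Ratios ran from 107.5 for Klra3 to 816 for Prf1. Over the 6 marker-defined classes, the level pattern most like that of Ncr1 was that of Klra8, Klra4, Klrb1f, Styk1 and Klrg1, with Pearson r of log2(CPM + 1) between 0.996 for Klrg1 and 0.997 for Klra8. These r values describe 6 points that share 2 libraries.

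**Figure D1:**
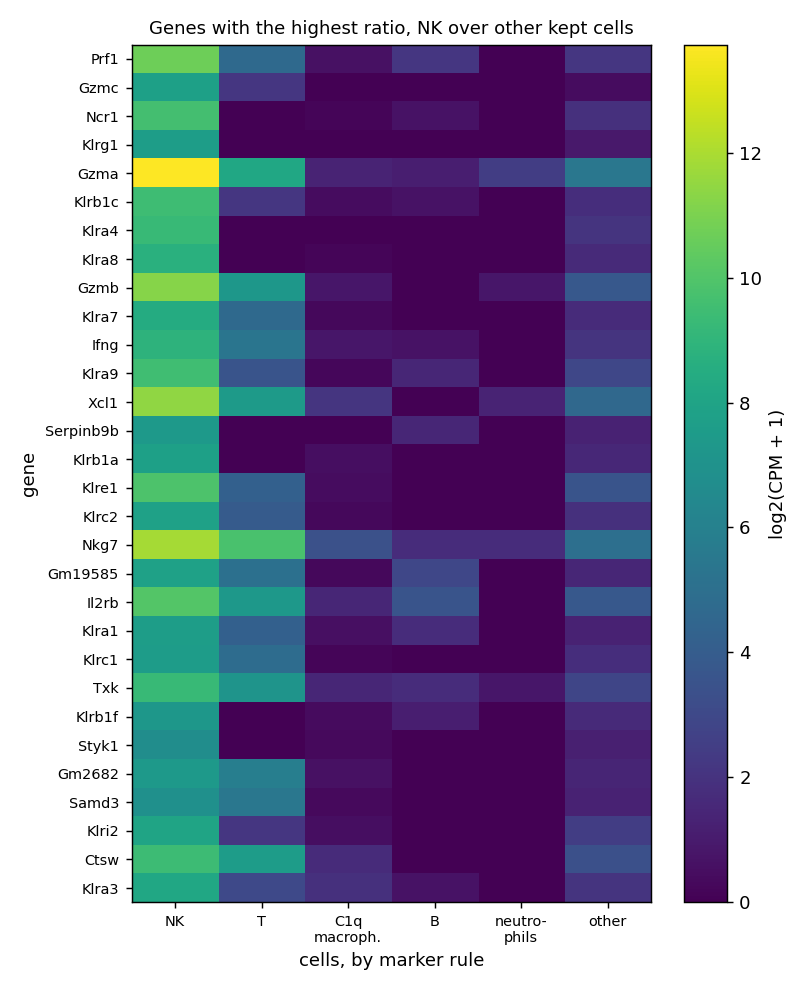
Heat map of log2(CPM + 1) for the 30 genes with the highest ratio of NK cells over other kept cells (rows, highest ratio on top) in 6 cell classes set by marker rules (columns). The NK column is the mean of 6 pools and the other columns are pooled cells. Every row was highest in NK cells, with T cells next for Gzma (291 CPM), Gzmb (153 CPM) and Nkg7 (867 CPM).

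The label was checked against defining markers of other lymphocytes. Cd4, Cd8a, Cd8b1 and Cd5 had no UMI in 1490293 NK UMIs, which allows up to 2.01 CPM, and Cd3d, Cd3e and Cd3g, limited by the rule, had 5 UMIs in all. Trbc1, a constant segment of the T cell receptor beta locus that NK cells transcribe without rearrangement, averaged 360 ± 24.2 CPM at 15 months and 493 ± 70.5 CPM at 3 months (n = 3 pools per age, SD). Of the 11 T cell genes listed 7 were detected, Trac, Trdc and Trbc2 among them. Il17a, Il22, Il23r, Il13 and Il5, which mark other innate lymphoid cells, had no UMI either. Of the 8 listed genes of those cells 2 were detected, and Gata3 was high enough to be tested by age. That list summed to 26.1 to 79.5 CPM over the 6 pools. Eomes, the T-box factor that separates NK cells from ILC1, had a UMI in 32.3% of 186 NK cells at 15 months and 34.1% of 176 at 3 months, after each cell was thinned to 2000 UMIs. The shares in C1q macrophages were 0.590% of 1526 cells and 0.125% of 801 cells. Exact 95% intervals for the NK shares were 25.6% to 39.5% at 15 months and 27.1% to 41.6% at 3 months. They treat the cells of an age as 1 group, and the pools differed more. Pools 1, 2 and 3 had 25.6%, 40.0% and 10.7% at 15 months, against 38.2%, 36.7% and 28.6% at 3 months. Before thinning the NK shares were 45.0% and 46.4%. Thinning left out 5 NK cells at 15 months and 16 at 3 months, and intervals cover counting error only. Of genes that mark ILC1, Cxcr6 had a UMI in 10.8%, Itga1 in 6.99% and Il7r in 3.76% of thinned NK cells at 15 months. In 15-month pool 3 these shares were 21.4%, 10.7% and 14.3%. The 3-month pools ran from 2.86% to 5.26% for Cxcr6, from 1.43% to 10.0% for Itga1 and from 0 to 4.29% for Il7r.

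Activating receptors were all detected, 22 of 22 genes. At 15 and 3 months, Klrk1 (NKG2D) averaged 777.7 ± 83.1 and 704 ± 92.9 CPM (n = 3 pools per age, SD). Klra4 (Ly49D) averaged 624 ± 244 and 571 ± 126 CPM, and Klra8 (Ly49H, which binds a cytomegalovirus protein) averaged 348 ± 48.7 and 493 ± 109 CPM. Their adaptors Tyrobp (DAP12), Fcer1g and Hcst (DAP10) averaged 3632, 3561 and 689 CPM at 15 months and 3651, 3721 and 554.5 CPM at 3 months, and the first of these, with Fcer1g, are also macrophage genes, at 2733 CPM (Tyrobp) and 3290 CPM (Fcer1g) in C1q macrophages. Inhibitory receptors were also all detected, 23 of 23, with Klrd1 (CD94, the partner chain of the NKG2 receptors) at 997 ± 184 CPM at 15 months and 1018 ± 61.6 CPM at 3 months. Checkpoint receptors were scarce: Pdcd1 (PD-1) had 16 UMIs at 15 months and 4 at 3 months, Lag3 had 9 and 5, Tigit 4 and 2, and Havcr2 5 and 1.

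Granule genes of the uterine NK type were split. Gzmd, Gzme, Gzmf and Gzmg, granzymes typical of decidual NK cells, had no UMI, while Gzmc was present. Of the cytokines listed, Il10, Il13 and Cd40lg had no UMI. Ccl5 had a UMI in 98.4% of NK cells at 15 months and 100.0% at 3 months after thinning, against 4.06% and 5.37% of C1q macrophages. Ifng had a UMI in 34.4% and 30.1% of NK cells, against 0.131% and 0 of 801 C1q macrophages, and in 47.6% and 41.7% of NK cells before thinning. Transcription factors with high NK levels were Irf8 (1880 ± 211 CPM at 15 months and 1657 ± 242 CPM at 3 months), Id2, Klf2, Ets1, Stat4 and Runx3, and Tox2 had no UMI.

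The first comparison between ages concerned the share of NK cells. NK cells made up 5.74%, 4.88% and 3.13% of kept cells in pools 1, 2 and 3 at 15 months, against 11.7%, 6.26% and 7.88% at 3 months. The ages did not overlap: every 15-month pool was below every 3-month pool. The mean was 4.58 ± 1.33% at 15 months and 8.62 ± 2.81% at 3 months (n = 3 pools per age, SD), a log2 ratio of -0.92 ± 0.50 (SE). This did not pass the threshold in edgeR on cell numbers (adjusted p = 0.161 over 6 classes), and the two-sided exact permutation test over pools gave p = 0.1, the smallest that 3 against 3 pools allow. Among cells with a UMI of Ptprc (CD45) the log2 ratio was -1.02 ± 0.46 (edgeR adjusted p = 0.0721). Shares of a sort sum to the whole: B cells rose in the same test by a log2 ratio of 3.26 ± 0.74 (edgeR adjusted p = 0.0011), and their part in the NK value was not tested.

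**Figure D2:**
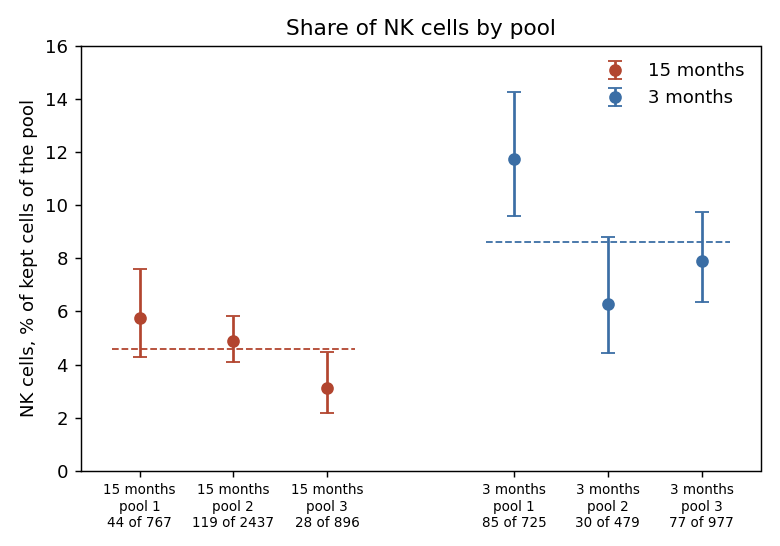
NK cells as a percent of the kept cells of each pool, 15 months on the left and 3 months on the right. Points are pools with 95% Wilson intervals, which cover counting error only, dashed lines are means of 3 pools, and the numbers under the axis are NK cells of kept cells. All 15-month pools lie at or below 5.74% and all 3-month pools at or above 6.26%.

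Genes of NK cells were then compared between ages on UMI counts summed per pool, with the edgeR quasi-likelihood test. Of 3055 genes tested, 11 passed an adjusted p of 0.05 (0.36% of those tested), 6 higher (0.196%) and 5 lower (0.164%) at 15 months. At an unadjusted p of 0.05, 484 genes (15.8%) were called, 256 higher (8.38%) and 228 lower (7.46%), and in 359 genes (11.8%) the 15-month pools lay above all 3-month pools, with 371 genes (12.1%) below. Without the 8 barcodes carrying other lineages' RNA, a choice made after seeing the data, 28 of 2954 genes passed (0.948%), 16 higher (0.542%) and 12 lower (0.406%), among them all 11. These counts run over all genes tested, those of the NK rule included, and Prf1 of that rule is among the 28. The counts and medians of gene lists given below likewise include any rule gene on the list. The count was 4 without 15-month pool 2, 6 without 15-month pool 1 and 17 without 15-month pool 3.

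S100a6, a calcium-binding protein gene of mature NK cells (chr3:90612882-90624181), rose at 15 months. It had 2209, 2249 and 2982 CPM at 15 months, against 1195, 854 and 1338 CPM at 3 months. The lowest 15-month pool was well above the highest 3-month pool, and the log2 ratio was 1.11 ± 0.17 (edgeR adjusted p = 0.00360). It passed the threshold under all 21 alternatives, with the adjusted p from 1.58e-08 to 0.0366. After thinning, 82.8% of 186 NK cells at 15 months and 60.2% of 176 at 3 months had a UMI of it (91.1% and 68.2% before thinning), against 39.1% of C1q macrophages at either age. C1q macrophages averaged 497 CPM at 15 months and 808 CPM at 3 months.

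Il18rap, the accessory chain of the interleukin-18 receptor (chr1:40515362-40551705), rose as well. Its values were 362, 291 and 239 CPM at 15 months, against 147, 131 and 138 CPM at 3 months, with no overlap between ages. The log2 ratio was 1.09 ± 0.21 (edgeR adjusted p = 0.0271), and the adjusted p ranged from 0.00304 to 0.162 over the alternatives. It was close to absent from C1q macrophages (1.18 CPM at 15 months and 1.12 CPM at 3 months), and 40.3% of NK cells at 15 months and 21.6% at 3 months had a UMI (56.0% and 32.8% before thinning), against 0.197% and 0.499% of C1q macrophages. Adgre5, the adhesion receptor CD97 (chr8:83723251-83741326), had 519, 409 and 487 CPM at 15 months, against 281, 174 and 233 CPM at 3 months. This was a log2 ratio of 0.97 ± 0.20 (edgeR adjusted p = 0.0444), with an adjusted p from 0.000704 to 0.203 over the alternatives, and C1q macrophages averaged 197 CPM at 15 months and 127 CPM at 3 months. Il18rap passed in 15 and Adgre5 in 13 of 22 settings, the one reported here included. The pools of the 2 ages did not overlap for either gene.

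The other called genes had values in the same direction in C1q macrophages, where they were not tested on their own. Lars2, a mitochondrial leucyl-tRNA synthetase gene, had 277, 211 and 159 CPM at 15 months, against 40.8, 26.1 and 51.8 CPM at 3 months (a log2 ratio of 2.36 ± 0.30 with adjusted p = 0.000721 in edgeR), and C1q macrophages averaged 139 CPM and 64.9 CPM. The long noncoding RNA AY036118 averaged 236 ± 19.3 CPM at 15 months and 32.8 ± 16.7 CPM at 3 months (n = 3 pools per age, SD), and C1q macrophages 397 CPM and 89.2 CPM. It overlaps the predicted gene model Gm42418, the sixth gene called higher, on the opposite strand of chromosome 17, so the counts of both are uncertain. Rps2, a ribosomal protein gene with near-identical pseudogene copies, averaged 2263 ± 291 CPM at 15 months and 3726 ± 693 CPM at 3 months (a log2 ratio of -0.71 ± 0.14 with adjusted p = 0.0444 in edgeR), and C1q macrophages 2528 CPM and 3477 CPM. Gm10076, a further predicted gene model, averaged 159 ± 11.7 CPM at 15 months and 349 ± 30.9 CPM at 3 months (edgeR adjusted p = 0.0103), and C1q macrophages 156 CPM and 276 CPM.

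The haemoglobin genes Hbb-bs, Hba-a1 and Hba-a2, the remaining ones called lower, are red blood cell transcripts. Hbb-bs had 42.6, 34.8 and 19.9 CPM at 15 months, against 9239, 445 and 962 CPM at 3 months, the first 3-month pool being that of the barcode with 62.2% haemoglobin. Without the 8 barcodes, and scaled by plain UMI totals in place of TMM library sizes, the 15-month pools had 18.5 to 38.3 CPM and the 3-month pools 419 to 608 CPM. C1q macrophages averaged 85.2 CPM of Hbb-bs at 15 months and 4009 CPM at 3 months. Without the 2 NK barcodes over 1% haemoglobin, both at 3 months, 27 genes passed the threshold.

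**Figure D3:**
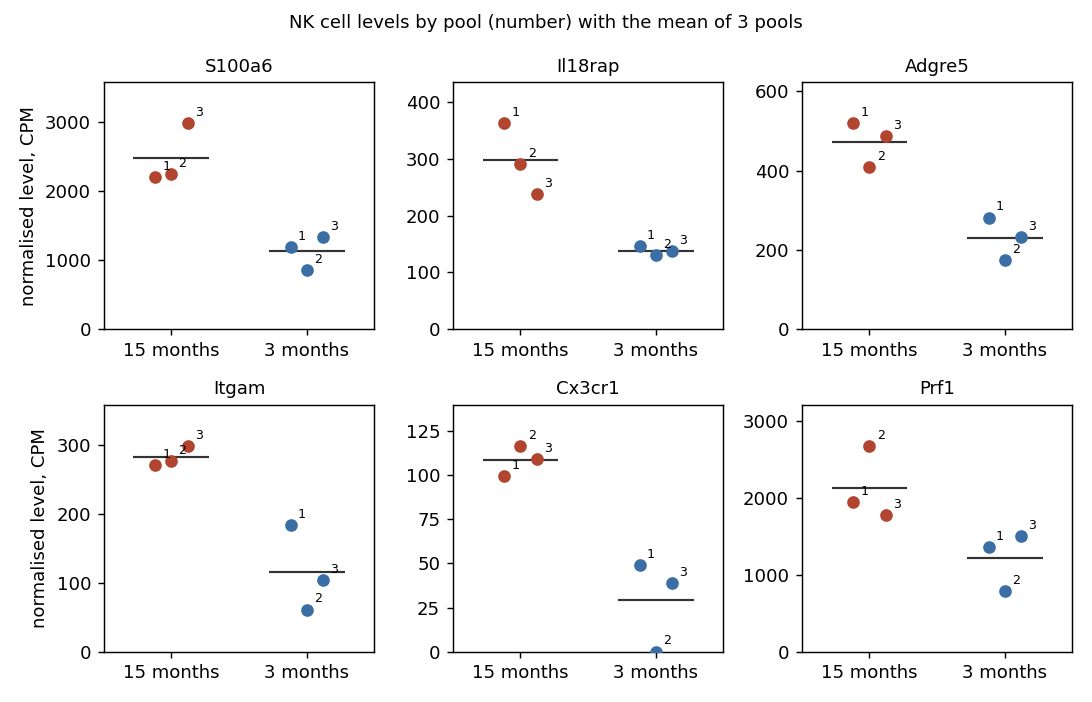
Levels of 6 genes in NK cells, in CPM, by pool (points numbered by pool), with the mean of 3 pools as a line and 15 months to the left of 3 months in every panel. S100a6, Il18rap and Adgre5 passed the threshold, Itgam and Cx3cr1 did not, and Prf1, a gene of the NK rule, is shown with no test. The 15-month pools lie above the 3-month pools for S100a6, Il18rap, Adgre5, Itgam and Cx3cr1. The Prf1 panel has the same order, but its UMIs helped to choose the cells, so it is a description only.

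Genes of the mature, CD27-low stage were higher in value at 15 months throughout. Of 15 listed genes all were detected and 13 tested, and all 13 had a positive log2 ratio, against 49.6% of all genes tested. This list and those below were chosen with earlier results of these data known. Their counts and medians are therefore a description and not a test. S100a6 was the only one to pass the threshold, and Prdm1 and S1pr5 were too low to test. The median log2 ratio was 0.72, against -0.0044 for all genes, and between 0.58 and 0.94 under the alternatives. The summed level of the list was 12288, 13424 and 12286 CPM at 15 months, against 10303, 6589 and 9214 CPM at 3 months, so the ages did not overlap.

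Itgam, which encodes the CD11b chain of the sort gate (chr7:128062640-128118491), had 269.9, 276 and 298 CPM at 15 months, against 183, 61.0 and 104 CPM at 3 months. The log2 ratio was 1.16 ± 0.27 (edgeR adjusted p = 0.0650). A UMI of Itgam was found in 39.5%, 39.1% and 35.7% of thinned NK cells at 15 months, against 21.1%, 13.3% and 10% at 3 months. All 15-month pools were above all 3-month pools, and before thinning the shares over all cells were 58.6% at 15 months and 26.0% at 3 months. The C1q macrophage shares were 23.4% and 20.2%. Where the gate lay in each sort is not given in the sources used here. Cx3cr1, a chemokine receptor of circulating mature NK cells, had 99.4, 117 and 109 CPM at 15 months, against 48.9, 0 and 38.8 CPM at 3 months (log2 ratio 1.65 ± 0.41, edgeR adjusted p = 0.0933). C1q macrophages averaged 140 CPM of Itgam and 351 CPM of Cx3cr1 over their 6 pools.

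Klrg1, an inhibitory receptor of late NK cells, averaged 259 ± 64.3 CPM at 15 months and 134 ± 69.5 CPM at 3 months (n = 3 pools per age, SD; log2 ratio 0.86 ± 0.28, edgeR adjusted p = 0.179), and its pools overlapped. Cma1, a chymase gene, averaged 404 ± 7.24 CPM and 238 ± 57.5 CPM (log2 ratio 0.72 ± 0.19, edgeR adjusted p = 0.106). Without the 8 barcodes S100a4, a relative of S100a6, also passed, at 351, 442 and 731 CPM at 15 months, against 297, 114 and 230 CPM at 3 months (log2 ratio 1.08 ± 0.26, edgeR adjusted p = 0.0435). With all NK cells its adjusted p was 0.106. These levels are scaled by plain UMI totals, and C1q macrophages averaged 330 CPM of S100a4.

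Most tested genes of the immature, CD27-high stage had a negative log2 ratio, but the summed level of the list overlapped between ages. Of 15 listed, all were detected and 8 tested, 6 with a negative and 2 with a positive log2 ratio, none past the threshold. The median was -0.49, and from -1.01 to -0.12 under the alternatives. The summed level of the list was 3495, 3340 and 6113 CPM at 15 months, against 4456, 5813 and 3711 CPM at 3 months. The highest sum of all was that of 15-month pool 3. Ctla2a, a cysteine protease inhibitor gene, averaged 446 ± 156 CPM at 15 months and 735 ± 92.2 CPM at 3 months (a log2 ratio of -0.77 ± 0.21 with adjusted p = 0.110 in edgeR), and without the 8 barcodes its adjusted p was 0.0383. Cd27 had 71.0, 24.6 and 59.6 CPM at 15 months, against 77.5, 69.7 and 73.4 CPM at 3 months (edgeR adjusted p = 0.309). The highest 15-month value lay within the range of the 3-month pools. Tcf7, the TCF-1 factor of early stages, was too low to test, with 17 UMIs at 15 months and 33 at 3 months.

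**Figure D4:**
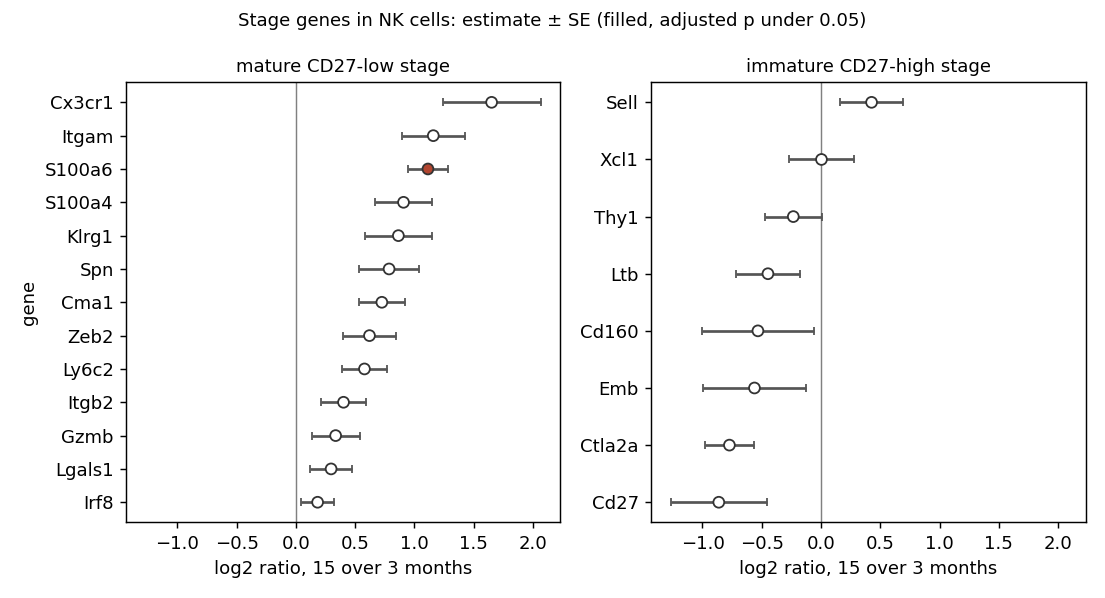
Log2 ratio of 15 over 3 months in NK cells, with its standard error, for tested genes of the mature CD27-low list (left, 13 genes) and the immature CD27-high list (right, 8 genes). Filled points passed an adjusted p of 0.05, which is S100a6 alone. All 13 mature-list estimates are above 0, and 6 of 8 immature-list estimates are below 0. Both lists were chosen with earlier results of these data known, so these counts are a description.

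Receptor genes by age passed the threshold in no case, out of 19 activating and 9 inhibitory receptors tested. Activating receptors had 12 positive and 7 negative log2 ratios with a median of 0.12, which ran from 0.036 without 3-month pool 2 to 0.22 without 15-month pool 2. Inhibitory ones had 6 and 3 with a median of 0.37, from 0.26 to 0.63 under the alternatives. The Ly49 family, which recognises MHC class I in mice and is expressed by overlapping subsets of NK cells, varied between genes. Klra3 (Ly49C) had 540, 344 and 248.5 CPM at 15 months, against 224, 209 and 194 CPM at 3 months (log2 ratio 0.85 ± 0.24, edgeR adjusted p = 0.122). Klra1 (Ly49A) had 178, 307 and 258 CPM at 15 months, against 126, 166 and 160 CPM at 3 months (edgeR adjusted p = 0.123). In CPM both lay above the 3-month pools in every 15-month pool. The shares of thinned cells with a UMI overlapped between ages. They ran from 14.3% to 37.2% at 15 months and from 16.7% to 21.4% at 3 months for Klra3. For Klra1 they ran from 11.6% to 21.7% and from 11.8% to 16.7%.

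Klra9 (Ly49I) averaged 889 ± 102 CPM at 15 months and 587 ± 153 CPM at 3 months (n = 3 pools per age, SD; edgeR adjusted p = 0.186). Klra7 (Ly49G) had 376, 321 and 109 CPM at 15 months, against 330, 479 and 436 CPM at 3 months, and Klra8 had 305, 401 and 338 CPM, against 391, 479 and 609 CPM. The ages overlapped for both, and neither passed (edgeR adjusted p = 0.365 for Klra7 and 0.260 for Klra8). After thinning, 83.3 ± 7.90% of NK cells at 15 months and 84.8 ± 4.54% at 3 months had a UMI of at least 1 of the 6 genes (mean and SD of 3 pools), with 1.78 ± 0.37 and 1.85 ± 0.09 genes seen per cell. Before thinning the shares were 88.0% and 88.5%. In 15-month pool 3 the share was 75.0%, with Klra7 in 7.14% of its 28 cells. C1q macrophages gave 0.524% or less for each of the 6 genes.

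The Ly49 genes are near copies of each other, and reads that fit more than 1 of them may be lost or split, so their levels are uncertain. The 250 bases before the start of Klra8, Klra4 and Klra3 are shown for 2 activating genes and 1 inhibitory gene, and they say nothing of how alike the transcripts are. They lie at chr6:130129899-130130148, minus strand, chr6:130067272-130067521, minus strand and chr6:130337627-130337876, minus strand on GRCm38.p6 (RefSeq), and they hold none of the 3 motifs named above.
Klra8: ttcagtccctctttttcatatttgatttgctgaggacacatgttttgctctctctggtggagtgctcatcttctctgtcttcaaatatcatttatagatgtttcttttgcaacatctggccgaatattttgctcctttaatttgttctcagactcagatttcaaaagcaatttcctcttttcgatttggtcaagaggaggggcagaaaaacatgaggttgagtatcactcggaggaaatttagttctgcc
Klra4: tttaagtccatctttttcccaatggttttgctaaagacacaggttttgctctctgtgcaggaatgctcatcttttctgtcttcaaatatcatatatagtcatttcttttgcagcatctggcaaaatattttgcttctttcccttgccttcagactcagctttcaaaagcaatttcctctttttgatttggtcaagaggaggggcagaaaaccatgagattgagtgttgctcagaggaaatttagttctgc
Klra3: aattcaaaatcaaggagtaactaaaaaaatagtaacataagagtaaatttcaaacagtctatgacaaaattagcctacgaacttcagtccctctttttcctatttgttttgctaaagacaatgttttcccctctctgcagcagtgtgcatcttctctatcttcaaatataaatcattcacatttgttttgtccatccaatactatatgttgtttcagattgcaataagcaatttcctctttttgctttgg
Shifted by 1 base, Klra8 and Klra4 had the same base at 212 of 249 positions (85.1%). Klra3, shifted by 81 bases, matched Klra8 at 80 of 169 positions (47.3%) and, shifted by 80 bases, Klra4 at 79 of 170 (46.5%). No gaps were allowed, so an inserted or missing base puts all later bases out of step. The values for Klra3 therefore do not measure how alike its window is to the other windows.

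**Figure D5:**
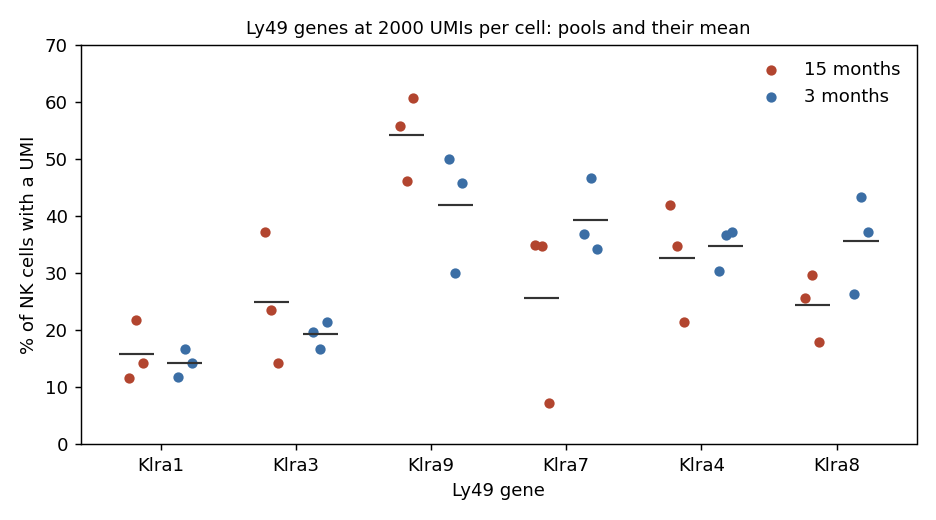
Percent of NK cells with at least 1 UMI of each of 6 Ly49 genes after thinning to 2000 UMIs per cell. Points are pools and lines their means, with 15 months left of 3 months for each gene. Over all cells of an age Klra9 was the most frequent, in 46.1% to 60.7% of cells at 15 months and 30% to 50% at 3 months, and the Klra7 point at 7.14% is 15-month pool 3.

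Cytotoxic granule genes had 12 positive and 5 negative log2 ratios among 17 tested of 24, with a median of 0.12 and none past the threshold. Prf1 had 1953, 2681 and 1779 CPM at 15 months, against 1358, 784 and 1506 CPM at 3 months. It is one of the genes of the NK rule, and the counts and median above include it. Its own values are given with no test. Gzma had 16322, 17876 and 11302 CPM at 15 months, against 13834, 9465 and 12641 CPM at 3 months (edgeR adjusted p = 0.293). The pools of Gzma overlapped.

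Gzmc, a granzyme of activated and uterine NK cells, had 99.4, 69.6 and 119 CPM at 15 months, against 469, 52.3 and 518 CPM at 3 months (log2 ratio -2.11 ± 0.47, adjusted p = 0.0580 in edgeR, or 0.00867 without the 8 barcodes). The lowest value of all belonged to 3-month pool 2. The cells with a UMI of it were about as many at both ages, 13 of 186 (6.99%) at 15 months and 14 of 176 (7.95%) at 3 months after thinning (8.38% and 9.38% before), while its UMIs were 60 and 241. Vegfa, an angiogenic factor on the uterine list, had 99.4, 135 and 109 CPM at 15 months, against 159, 279 and 216 CPM at 3 months (edgeR adjusted p = 0.154). That list had 5 of 17 genes tested, 2 positive and 3 negative, none past the threshold.

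Among effector cytokines, 7 of 18 were tested, 5 with a positive log2 ratio and none past the threshold. Ccl5 had 24455, 25950 and 20715 CPM at 15 months, against 18666, 10685 and 19796 CPM at 3 months (log2 ratio 0.53 ± 0.17, edgeR adjusted p = 0.154). Ccl4 and Ccl3, chemokines that macrophages also make (1242 and 437 CPM in C1q macrophages), averaged 6080 ± 2047 and 1428 ± 129 CPM at 15 months and 4576 ± 1257 and 1079 ± 475 CPM at 3 months. Ifng averaged 395 ± 127 CPM and 531 ± 288 CPM (edgeR adjusted p = 0.673). Xcl1 averaged 2817 ± 1166 CPM and 2801 ± 1228 CPM, a difference far smaller than its spread between pools.

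Cytokine receptors had 9 of 22 tested, 7 with a positive log2 ratio, a median of 0.41, and Il18rap as the one past the threshold (0.196% of all genes were called higher). Il12rb2, a chain of the interleukin-12 receptor, had 156, 137 and 149 CPM at 15 months, against 73.4, 43.6 and 77.7 CPM at 3 months (log2 ratio 1.07 ± 0.26, edgeR adjusted p = 0.0917). Il2rg, the common gamma chain, averaged 489 ± 11.7 CPM and 348 ± 6.91 CPM (edgeR adjusted p = 0.179). In both genes every 15-month pool was above every 3-month pool. Il18r1, the partner chain of Il18rap, averaged 129 ± 40.5 CPM at 15 months and 121 ± 31.5 CPM at 3 months.

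Downstream of the receptors, 12 of 19 signalling and survival genes were tested, 7 with a positive log2 ratio. Stat3 had 256, 284 and 388 CPM at 15 months, against 155, 157 and 155 CPM at 3 months (log2 ratio 0.95 ± 0.21, adjusted p = 0.0580 in edgeR, or 0.0475 without the 8 barcodes). Socs3, a feedback inhibitor, averaged 75.1 ± 23.5 CPM and 161 ± 23.1 CPM (edgeR adjusted p = 0.106). Ptprc averaged 2737 ± 121 CPM at 15 months and 1941 ± 129 CPM at 3 months (edgeR adjusted p = 0.0650), and its protein is the other gate of the sort. Of the adaptors, Sh2d1a (SAP) and Dok2 were lower in all 15-month pools than in all 3-month pools, with adjusted p of 0.126 and 0.127 in edgeR. The adaptor list had 20 of 23 tested, 11 positive and none past the threshold.

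Transcription factors had 17 of 29 tested, 12 with a positive log2 ratio, a median of 0.26 and none past the threshold. Zeb2, a driver of terminal NK maturation, averaged 306 ± 102 CPM at 15 months and 201 ± 15.3 CPM at 3 months (edgeR adjusted p = 0.214). Tbx21 (T-bet) averaged 165 ± 43.2 CPM and 98.3 ± 47.6 CPM, and Eomes 178 ± 101 CPM and 257 ± 23.1 CPM. Klf2, which keeps lymphocytes in circulation, averaged 980.5 ± 135 CPM and 1382 ± 423 CPM (edgeR adjusted p = 0.234). Ikzf1 averaged 246 CPM at 15 months and 173 CPM at 3 months (edgeR adjusted p = 0.235).

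Genes of migration and adhesion had 15 of 20 tested log2 ratios above 0, with a median of 0.41 and none past the threshold. The median ran from 0.13 without 15-month pool 2, with 12 of 18 above 0, to 0.55 without 3-month pool 1. Itgal, the alpha chain of LFA-1, had 455, 413 and 427 CPM at 15 months, against 309.9, 279 and 250.3 CPM at 3 months (log2 ratio 0.62 ± 0.17, edgeR adjusted p = 0.122). Residency and ILC1 genes had 8 of 9 tested above 0, with a median of 0.53 and none past the threshold. The median ran from 0.078 with an NK sum of at least 5 UMIs, with 4 of 7 above 0, to 0.65 without 15-month pool 1, and it was 0.26 without 3-month pool 2. Cxcr6, a receptor of resident lymphocytes, had 63.9, 102 and 209 CPM at 15 months, against 53, 43.6 and 47.5 CPM at 3 months (edgeR adjusted p = 0.165). Rgs1 averaged 1685 ± 462 CPM and 1125 ± 232 CPM (edgeR adjusted p = 0.186), and Itga1 (CD49a) 73.5 ± 31.6 CPM and 34.0 ± 19.8 CPM (edgeR adjusted p = 0.259).

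Pools of 1 age were not alike in these genes. The 28 NK cells of 15-month pool 3 had the highest levels of the residency genes Cxcr6, Rora (298 CPM, against 56.8 and 28.7 CPM in the other 15-month pools), Il7r (169 CPM, against 0 and 22.5 CPM) and Cd200r1 (139 CPM, against 28.4 and 30.7 CPM). Its Eomes level was the lowest, at 89.5 CPM against 156 and 289 CPM in 15-month pools 1 and 2. The summed residency list was 6143 CPM in that pool, against 3012 and 3353 CPM in 15-month pools 1 and 2 and 2205 to 3340 CPM at 3 months. In 3-month pool 2 the cycling genes stood out, with Stmn1 at 558 CPM against 89.7 and 129 CPM in the other 3-month pools. Cell cycle genes overall had 4 of 16 tested and none past the threshold, and Mki67 had a UMI in 3 of 186 NK cells at 15 months and 3 of 176 at 3 months after thinning (4.19% and 2.08% before). The Stmn1 difference between ages changed sign without 3-month pool 2.

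Stress and housekeeping lists differed in direction. Of 11 heat shock genes tested, 9 had a negative log2 ratio, with a median of -0.36 and none past the threshold. Hspe1, a mitochondrial chaperonin, averaged 401 ± 39.2 CPM at 15 months and 685 ± 68.7 CPM at 3 months (edgeR adjusted p = 0.0580), and C1q macrophages 381 CPM and 664 CPM. Hsp90ab1 averaged 1786 ± 154 CPM and 2661 ± 292 CPM (edgeR adjusted p = 0.0580), and without the 8 barcodes its adjusted p was 0.0387. Hspd1 averaged 236 ± 35.0 CPM and 375 ± 59.7 CPM (edgeR adjusted p = 0.127). Immediate early genes, which tissue dissociation can induce, had 15 of 25 tested above 0 and a median of 0.07. Fosb had 185, 295 and 457 CPM at 15 months, against 85.6, 61.0 and 159.7 CPM at 3 months (log2 ratio 1.48 ± 0.32, adjusted p = 0.0580 in edgeR, or 0.0116 without the 8 barcodes).

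Mitochondrially encoded genes had 10 of 12 tested above 0, with a median of 0.20. Among them mt-Co3 averaged 4915 ± 408 CPM at 15 months and 3419 ± 315 CPM at 3 months (adjusted p = 0.0580 in edgeR, or 0.0346 without the 8 barcodes), and C1q macrophages 5862 CPM and 3961 CPM. Glycolysis genes had 9 of 13 tested below 0, with Gapdh at 460 ± 51.7 CPM and 756 ± 27.3 CPM (edgeR adjusted p = 0.0580). Interferon response genes had 7 of 25 tested, 3 above 0, with Bst2 (tetherin) at 49.3 ± 17.1 CPM and 164 ± 77.0 CPM (edgeR adjusted p = 0.0732). MHC class I and immunoproteasome genes had 7 of 14 above 0 and a median of 0.02, and p53 and senescence genes 2 of 7. None of these 5 lists had a gene past the threshold with all NK cells.

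Marker lists of other cells moved as follows in the NK pools. The summed dendritic cell list ranged from 213 to 1021 CPM at 15 months and from 118 to 1709 CPM at 3 months, the macrophage list from 305 to 477 CPM and from 110.1 to 349.6 CPM, and the neutrophil list from 30.7 to 507 CPM and from 4.32 to 8.72 CPM. The list of theca, luteal and granulosa cells ranged from 9.94 to 26.6 CPM at 15 months and from 0 to 1802 CPM at 3 months, the red blood cell list from 49.1 to 63.9 CPM and from 706 to 15718 CPM. The 1802 CPM of 3-month pool 1 included the barcode with 439 UMIs of these markers, and the 507 CPM of the neutrophil list the barcode with 51 UMIs. Without the 8 barcodes, and scaled by plain UMI totals, the theca, luteal and granulosa list ranged from 9.26 to 22.6 CPM at 15 months and from 0 to 11.7 CPM at 3 months, and the neutrophil list from 0 to 38.3 CPM and from 4.03 to 8.74 CPM. On that scale the dendritic cell list ranged from 142 to 250 CPM and from 96.1 to 117 CPM, and the macrophage list from 232 to 435 CPM and from 102 to 193 CPM, both without overlap between ages. The red blood cell list then ranged from 45.3 to 57.4 CPM and from 673 to 993 CPM. Monocyte markers, some of which NK cells share, ranged from 689.7 to 874 CPM and from 630.1 to 679.8 CPM. T cell markers ranged from 689 to 984 CPM and from 807 to 1023 CPM, most of it Trbc1 and Trbc2. Mast cell, stromal, endothelial, B cell and other innate lymphoid cell lists stayed at or below 149 CPM in every pool, and their part in the results was not tested.

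The age effect in NK cells was set against that in C1q macrophages of the same pools with an interaction term and the pool as a block. Of 9520 genes, 8 passed an adjusted p of 0.05 in edgeR (0.084%), 6 with a higher and 2 with a lower ratio in NK cells, and 478 had an unadjusted p under 0.05 (5.02%). S100a6 was one, with 2480 ± 435 CPM at 15 months and 1129 ± 248 CPM at 3 months in NK cells, and 497 ± 51.9 CPM and 808 ± 354 CPM in C1q macrophages. Ccl5 was another, with 23707 ± 2697 CPM and 16382 ± 4966 CPM in NK cells, and 89.2 ± 78.9 CPM and 143 ± 56.6 CPM in C1q macrophages (n = 3 pools per age, SD). No gene passed in DESeq2, where 192 had an unadjusted p under 0.05, with a mean of at least 50 CPM, where 173 did, or with an NK sum of at least 2 UMIs, where 494 did.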

How the data were processed

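Single-cell RNA was measured in 2 libraries of CD45+CD11b+ ovarian cells, 15 months and 3 months of age. The deposited values are UMI counts per gene and hashtag and barcode, from Cell Ranger 4.0.0 per the file headers and 7.0.0 per the submitters' processing notes, which also give FastQC 0.11.4 and mm10. Whether the authors filtered cells further is not given in the sources used here.

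Barcodes with at least 500 genes, 1000 gene UMIs, at most 10% mitochondrial UMIs, and a top hashtag of at least 10 counts and 3 times the second were kept. Scrublet marked 0.0912% of scored cells, which is too few to have worked, so doublets were left in. Cells were classed by raw UMI rules: at least 3 UMIs of Cd3 genes for T cells, 3 of B cell genes, 20 of neutrophil genes, 10 of C1q genes.

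NK UMIs were summed per pool and tested with edgeR 4.0.16 (filterByExpr, TMM, quasi-likelihood, Benjamini-Hochberg, threshold 0.05) in R 4.3.3. Shares were tested with edgeR on cell numbers and an exact permutation test, and shares of cells with a UMI were taken after thinning to 2000 UMIs. The tests were checked on simulated data. P-values measure the spread between the 3 pools of each library only. Intervals and the floor of 3 counts cover counting error only. The deviations of same-numbered pools had correlations of 0.069, 0.150 and 0.064, against a set limit of 0.1 for pairing. The value of 0.150 lay above that limit and the others below it. Pairing was therefore not settled, and the main test used none.

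The members and gene lists were chosen with earlier results of these data known. Genes were named by a rule: called genes of at least 20 CPM, the 3 list members with the smallest p, the markers, the 30 genes with the highest NK to rest ratio at 100 CPM or more, up to 8 members of receptor, granule, cytokine and factor lists by level, and the 5 genes most like Ncr1. Other names, among them genes that set a pool apart or passed only without mixed barcodes, were chosen after their values were seen. Alternatives were other NK, cell and hashtag limits, HTODemux (Seurat 5.3.0), DESeq2 1.42.0, RLE scaling, other filters, a replicate block, and each pool left out. Some genes are not reported here.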

Additional observations from a re-analysis of the deposited data

Results flagged for a closer look

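The age effect in NK cells minus that in C1q macrophages passed an adjusted p of 0.05 in edgeR for 8 genes, given here as log2 differences with levels in CPM (mean of 3 pools each). S100a6 had a difference of 1.696, with 2480 CPM at 15 months and 1129 CPM at 3 months in NK cells, and 497 and 808 CPM in C1q macrophages. Rbpj, a Notch pathway factor, had a difference of 2.249, with 178 and 43.8 CPM in NK cells and 102 and 139 CPM in C1q macrophages. Ccl5 had a difference of 1.54, with 23707 and 16382 CPM in NK cells and 89.2 and 143 CPM in C1q macrophages. Gm42418 had a difference of 1.088, with 11094 and 1772 CPM in NK cells and 9289 and 3104 CPM in C1q macrophages. The noncoding transcript AW112010 had a difference of -1.462, with 5271 and 6401 CPM in NK cells and 311 and 135 CPM in C1q macrophages.

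Ccl9, a chemokine gene, had a difference of 2.648, with 66.4 and 17.2 CPM in NK cells and 257 and 424 CPM in C1q macrophages, and it rests on 61 NK UMIs at 15 months and 10 at 3 months. Plac8 had a difference of -2.865, with 51.3 and 247 CPM in NK cells and 133 and 80.2 CPM in C1q macrophages, and 3-month pool 2 alone held 549 CPM. S100a9, a neutrophil gene, had a difference of 6.014, with 139 and 5.62 CPM in NK cells and 47.6 and 135 CPM in C1q macrophages, and 15-month pool 3 held 368 CPM, the pool of the barcode with neutrophil markers. Without the 8 NK barcodes with RNA of other lineages the S100a9 difference was 2.657 and did not pass (adjusted p = 0.444 in edgeR), and that of Plac8 was -2.152 (adjusted p = 0.000214 in edgeR).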

How the results depend on the processing

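NK cell share by age kept its direction and its side of the threshold under every alternative, with log2 ratios from -1.09 to -0.64 when pools were left out. The strict cell filter gave an exact p of 0.2. The count of genes by age was 11, and 18 with an NK sum of at least 5 UMIs, 33 once the few barcodes marked by scrublet were dropped, 30 with strict limits on genes and UMIs, 27 without cells over 1% haemoglobin, 28 without NK barcodes of other lineages (chosen after seeing the data), 26 in DESeq2, 79 without a filter on low counts, and 4 to 17 with 1 pool left out. With the replicate block it was 97, and the log2 ratio of the NK share was -0.90. Whether the pool numbers pair the samples was not settled (the best partner of 15-month pools 1, 2 and 3 was 3-month pool 1, 2 and 1).

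The count against C1q macrophages was 8, and 0 with an NK sum of at least 2 UMIs, in DESeq2 or with a mean of at least 50 CPM, 5 with no Cd3 UMI or RLE scaling, 36 without scrublet calls, 18 without NK barcodes of other lineages, 32 without a filter on low counts, and 9 to 53 with 1 pool left out (16 and 21 when 15-month pool 1 or 2 was dropped, 26 and 53 when 3-month pool 1 or 3 was).

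Of 1932 values for 93 named genes under alternatives, 1717 kept direction and side of the threshold, 37 no longer passed, 160 newly passed and 18 changed sign. The 93 genes include Ncr1, Klrb1c, Klre1 and Prf1, whose UMIs chose the cells, so their values are a description only. The sign changes were in genes that did not pass. Lyz2 by age in NK cells was -0.025 with an NK sum of at least 2 UMIs, Ncr1 by age in NK cells -0.0012 with HTODemux, and Mcm6 by age in NK cells 0.11 with the strict cell filter. H2-Aa by age in NK cells was 2.20 without scrublet calls, 0.37 without barcodes of other lineages and -2.20 to 0.22 with 1 pool left out, and H2-Ab1 by age in NK cells was 2.34, 0.77 and -1.62 to 0.48. With 1 pool left out, Stmn1 by age in NK cells ran from -2.24 to 0.39, Trbc2 by age in NK cells from -0.10 to 0.37, Tgfb1 by age in NK cells from -0.061 to 0.40, Pecam1 by age in NK cells from -0.0032 to 0.57, Ighm by age in NK cells from -0.47 to 0.077 and Mcm6 by age in NK cells from -0.30 to 0.044. The cause was not tested.
Detection depended on depth: of 192 shares of cells with a UMI under other thinning depths or NK limits, 118 changed by no more than the SD between pools of that age and 74 moved further.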
